A study of Caenorhabditis elegans with 2 samples.

Results

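The mir-51 family of Caenorhabditis elegans comprises 6 genes for small regulatory RNAs, mir-51, mir-52, mir-53, mir-54, mir-55 and mir-56, out of 261 miRNA genes in the nuclear Ensembl annotation. These genes were chosen by name, and every peak with a summit within 2 kb of one of them was collected from each deposited list. Each list gives the places where DNA bound by SPTF-2, a zinc finger protein of the Sp family, was enriched in chromatin immunoprecipitation followed by sequencing (ChIP-seq). The worms were of strain OP769, with the genotype unc-119(tm4063) and the transgene wgls769, which carries sptf-2::TY1::EGFP::3xFLAG together with unc-119(+) as the rescuing gene. Whole young adults of both sexes were collected as a pool at 64.5 h after synchronization by bleaching and L1 starvation, and an anti-GFP antibody was used on sonicated chromatin, although the antibody field of the labels names sptf-2. There were 2 biological replicates of this single group, nothing to set it against, and no untagged strain was analysed here. The labels do not say how the cultures of the replicates were kept apart. Whole animals were used, so the peaks cannot be assigned to a tissue. The pull-down sees the tagged protein from the transgene, and the labels do not state which regulatory sequence drives it.

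A miRNA is cut from a hairpin in a longer primary transcript, first by Drosha with its partner Pasha and then by Dicer, and is loaded onto an Argonaute protein. It then finds messages mainly by pairing of its seed, the bases at positions 2 to 8. Members of the mir-51 family are broadly expressed and act redundantly. Worms that lack the whole family arrest as embryos, with failures in the attachment of the pharynx, for which the cadherin gene cdh-3 is a known target. The family is related to miR-99 and miR-100 of vertebrates.

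The mature sequences were read from the WBcel235 genome at the annotated positions, and they are shown because the shared seed defines the family. Capitals mark positions 2 to 8.
mir-51: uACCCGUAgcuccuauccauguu
mir-52: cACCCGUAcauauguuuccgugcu
mir-53: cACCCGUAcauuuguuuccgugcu
mir-54: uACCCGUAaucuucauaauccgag
mir-55: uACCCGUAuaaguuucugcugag
mir-56: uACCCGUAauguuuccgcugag

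All 6 carried the seed ACCCGUA, and none of the 255 miRNA genes outside the family had an annotated mature RNA with this seed. The seed lay on the 5′ arm of the hairpin in mir-51, mir-52 and mir-53, and on the 3′ arm in mir-54, mir-55 and mir-56. Of the first 22 positions, 7 were identical in all members, and these were positions 2 to 8 alone. The closest pair was mir-52 and mir-53, with 23 of 24 positions the same (95.8%) although they lie at different loci, and the other pairs had 39.1% to 63.6%.

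The 6 genes form 3 loci, so their values are not independent. On chromosome IV, mir-51 (WBGene00003279, chrIV:11026013-11026112, minus strand) and mir-53 (WBGene00003281, chrIV:11027593-11027691, minus strand) lie 1481 bp apart. Elsewhere on the same chromosome, mir-52 (WBGene00003280, chrIV:14034008-14034107, plus strand) stands alone among miRNA genes. It lies among 8 genes for piRNAs and 7 annotated ncRNA genes, counted within 2 kb. On chromosome X, mir-54 (WBGene00003282, chrX:13144996-13145094), mir-55 (WBGene00003283, chrX:13144827-13144924) and mir-56 (WBGene00003284, chrX:13144691-13144787) lie within an intron of the protein-coding gene F09A5.3, on its opposite strand. A further annotated miRNA gene, mir-55b, lies antisense to mir-55 and does not share the seed. It shares every peak of that cluster and is counted outside the family.

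SPTF-2 peaks lay at all 3 loci, at different strengths. The locus of mir-51 held one of the strongest peaks of the whole data set in both replicates. At mir-52 lay a peak at rank 331 of the 407 in the optimal list. The cluster of mir-54, mir-55 and mir-56 held a strong peak in replicate 1 and a weak one in replicate 2. The optimal list, which the submitters made from both replicates and thresholded for reproducibility, held the 407 strongest pooled peaks. In it, 3 of the 6 members (mir-51, mir-52 and mir-53) had a summit within 2 kb, against 11 of 255 other miRNA genes (4.31%) and 2.84% of all 46890 annotated nuclear genes. Within 500 bp the counts were 2 of 6 members, mir-51 and mir-52, and 2 of 255 other miRNA genes (0.784%). Since the family was picked with these peaks known, the counts are a description and were not tested.

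**Figure D1:**
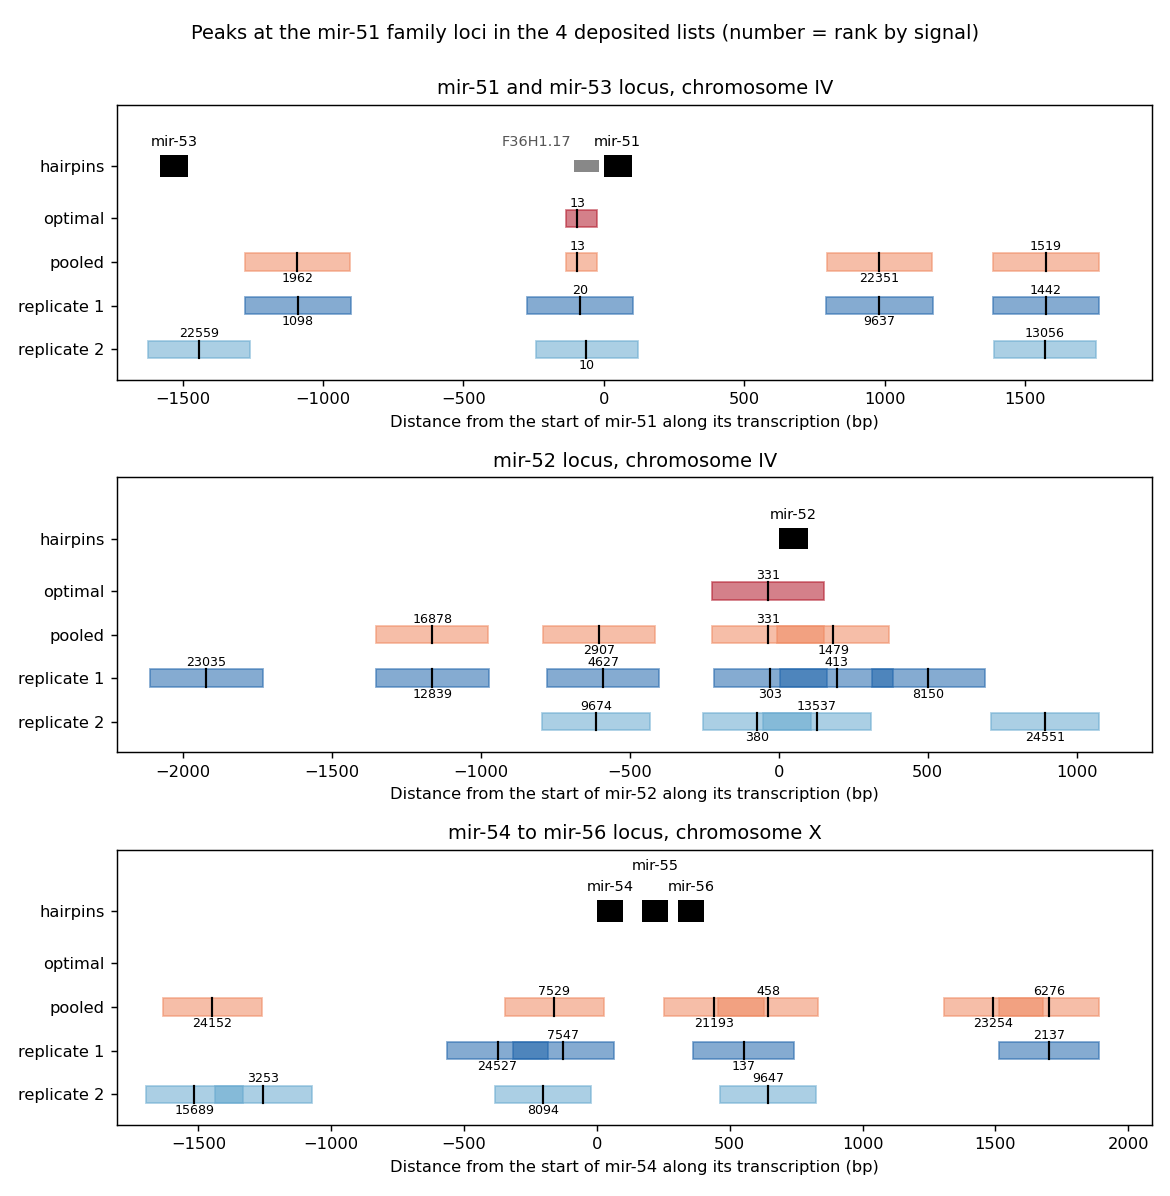
Peaks within 2 kb of the mir-51 family hairpins. Each panel is a locus, the horizontal axis is the distance in bp from the start of mir-51, mir-52 or mir-54 along its transcription, black bars are hairpins, the grey bar is F36H1.17, coloured bars are peaks in each list and black ticks are summits. Numbers are ranks by signal within the list, with 13, 20 and 10 in the pooled list and replicates 1 and 2 for the peak just before mir-51.

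The peak before mir-51 was the strongest at any miRNA gene. In the optimal and pooled lists it covered chrIV:11026136-11026246, with its summit at 11026207, 95 bp before the start of the hairpin. Its signal, a score on the peak caller's own scale, was 240.2, and it ranked 13 of 407 optimal and 13 of 30000 pooled peaks. Replicate 1 gave it a signal of 119 and rank 20, with a summit 86 bp before the hairpin, and replicate 2 a signal of 126 and rank 10, with a summit 62 bp before it. The replicate summits lay 24 bp apart, and both replicates placed the peak among their 20 strongest. No miRNA gene outside the family had a better-ranked peak within 2 kb in the pooled list or in either replicate.

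The summit lay not on the hairpin but in a short gene annotated only as an unclassified ncRNA, F36H1.17 (WBGene00219935, chrIV:11026131-11026219, minus strand), which ends 18 bp before mir-51 begins and is 89 nt long. The optimal peak covered 84 of these bases, and the summits lay 12 bp (pooled), 21 bp (replicate 1) and 45 bp (replicate 2) after the start of F36H1.17. For comparison, 122 tRNA genes started within 500 bp of an optimal summit, and their median offset was 26.5 bp downstream, with 115 of them within 200 bp. These genes were picked for a nearby summit, and offsets at other short RNA genes are not given. A likeness of F36H1.17 to tRNA genes was thus not tested. The sequence of F36H1.17 is shown because the strongest peak of the family lies on it. Capitals mark GGTTCGA, the core of the B box, an element inside tRNA genes that is bound when RNA polymerase III is recruited.
F36H1.17: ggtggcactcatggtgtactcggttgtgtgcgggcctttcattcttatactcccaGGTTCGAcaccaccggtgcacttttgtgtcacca

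These letters were looked for after they were seen here, so they were chosen on the data, and a match in so short a word does not show that the gene is transcribed in that way. They begin at position 56 of F36H1.17. On the sense strand they occurred in 395 of 612 tRNA genes (64.5%), in 65 of 5679 short annotated ncRNA genes, of 150 nt or less (1.14%) and in 2 of 261 miRNA genes (0.766%). On either strand, windows of 100 bp to each side of a summit held them at 61 of 407 optimal peaks and at 789 of 30000 pooled peaks (2.63%). Among optimal peaks with a tRNA gene start within 500 bp the share was 46.6%, and among those without one, of which the mir-51 peak is 1, it was 4.28% (13 of 304). No tRNA, snoRNA or snRNA gene start was annotated within 500 bp of the mir-51 summit.

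The width of this peak also set it apart from most. Of the 407 optimal peaks, 394 had the same width of 376 bp, and 13 were narrower, from 97 to 287 bp. The mir-51 peak, at 111 bp, was among these 13, all of which ranked 22 or better. Of the 13, 8 lay within 500 bp of a snoRNA gene start, and 4, including the peak at mir-51, had no tRNA, snoRNA or snRNA gene start there. No share over all 407 optimal peaks is given for snoRNA gene starts, so the count of 8 is a description only. The mir-51 peak was 380 bp wide in replicate 1 and 364 bp wide in replicate 2, as were all other peaks of those lists at the 3 loci.

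The remaining peaks around mir-51 and mir-53 were weaker. For mir-53 the nearest pooled summit lay 389 bp beyond the end of the hairpin, with a signal of 63.6 and rank 1962. Replicate 1 had a matching summit 391 bp beyond it, with a signal of 44.1 and rank 1098, while the only replicate 2 peak to overlap it had its summit 350 bp away, with a signal of 17.7 and rank 22559. That replicate 2 summit lay 39 bp from the hairpin. The replicate summits at mir-53 were thus apart, and mir-53 counts as having an optimal peak only because the mir-51 summit lies 1386 bp from it. A pooled peak in an exon of alh-3, an aldehyde dehydrogenase gene 143 bp from mir-51, had a signal of 67.5 and rank 1519. Its rank was 1442 in replicate 1 and 13056 in replicate 2.

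At mir-52 the optimal peak covered chrIV:14033785-14034160 and the summit lay at 14033973, 35 bp before the start of the hairpin. The signal was 95.2 and the rank 331 of 407, against a lowest optimal signal of 90.4. Replicate 1 listed it with a signal of 57.9 and rank 303, its summit 29 bp before the hairpin, and replicate 2 with a signal of 47.2 and rank 380, its summit 74 bp before it. Both replicates thus had it among their 407 strongest peaks, with summits 45 bp apart. The summit lay in annotated ncRNA genes on both strands, WBGene00195705, which runs in the direction of mir-52 and ends just before it, and WBGene00199919 on the other strand.

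A second peak lay just beyond the mir-52 hairpin. Its pooled summit was 84 bp after the end of the hairpin, with a signal of 67.9 and rank 1479. In replicate 1 the corresponding summit, 95 bp after the end, had a signal of 54.1 and rank 413, just below the 407 strongest. In replicate 2 the nearest summit, 28 bp after the end, had a signal of 21.4 and rank 13537. Farther upstream, a pooled peak 604 bp before mir-52 had a signal of 58.2 and rank 2907, with rank 4627 in replicate 1 and rank 9674 in replicate 2.

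The cluster on X had no optimal peak within 2 kb, and the nearest optimal summit was 23417 bp away. Its strongest pooled peak, chrX:13144262-13144637, had its summit at 13144450, 241 bp beyond the end of mir-56, the last of the 3 hairpins, and lay in the F09A5.3 intron. Its signal was 88.2 and its pooled rank 458, below the last optimal peak at rank 407. The replicates differed at this position. Replicate 1 had a signal of 69.4 and rank 137, with the summit 149 bp beyond mir-56, and replicate 2 a signal of 23.7 and rank 9647, with the summit 241 bp beyond it. These summits lay 92 bp apart.

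Before mir-54, the first hairpin of the X cluster, both replicates had a weak peak of similar rank. The pooled summit lay 160 bp before mir-54, with a signal of 46.3 and rank 7529. The signal was 28.2 in replicate 1 at rank 7547 and 24.9 in replicate 2 at rank 8094, with the summits 126 bp and 204 bp before the hairpin. The summit in the pooled list and that in replicate 1 lay in F09A5.11, an annotated ncRNA gene on the strand of the hairpins. The best-ranked peak of replicate 2 near the cluster lay elsewhere, 1256 bp before mir-54, with a signal of 30.8 and rank 3253, and no replicate 1 peak overlapped it.

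Of all 407 optimal peaks, 163 were among the 407 strongest of both replicates and 41 of neither. Those of replicate 1 alone numbered 114, and those of replicate 2 alone 89. Near the threshold of the optimal list, few peaks were among the strongest of both replicates. Of the last 50 peaks inside, with signals from 93.0 to 90.4, 1 was among the 407 strongest of both replicates, 16 of replicate 1 alone, 9 of replicate 2 alone and 24 of neither. Of the first 50 outside, with signals from 90.4 to 88.2, the counts were 1, 15, 10 and 24. The X peak, just below these in signal, was of the kind found in replicate 1 alone. The edge of the 2 kb window was also looked at, with distances to the nearest member of a locus. The last pooled summit inside was at 1475 bp (mir-51 and mir-53), 1164 bp (mir-52) and 1447 bp (X cluster). The next ones outside were at 4589 bp, 9269 bp and 3193 bp. Counted per member, the farthest pooled summit inside was 1754 bp from mir-56. Outside the family, mir-2212 (1970 bp) and mir-1819 (1823 bp) were counted in the optimal list through a summit near the edge. In the replicate lists the edge mattered at mir-52, where a replicate 1 summit lay inside at 1922 bp (rank 23035) and a replicate 2 summit outside at 2055 bp (rank 21216).

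**Figure D2:**
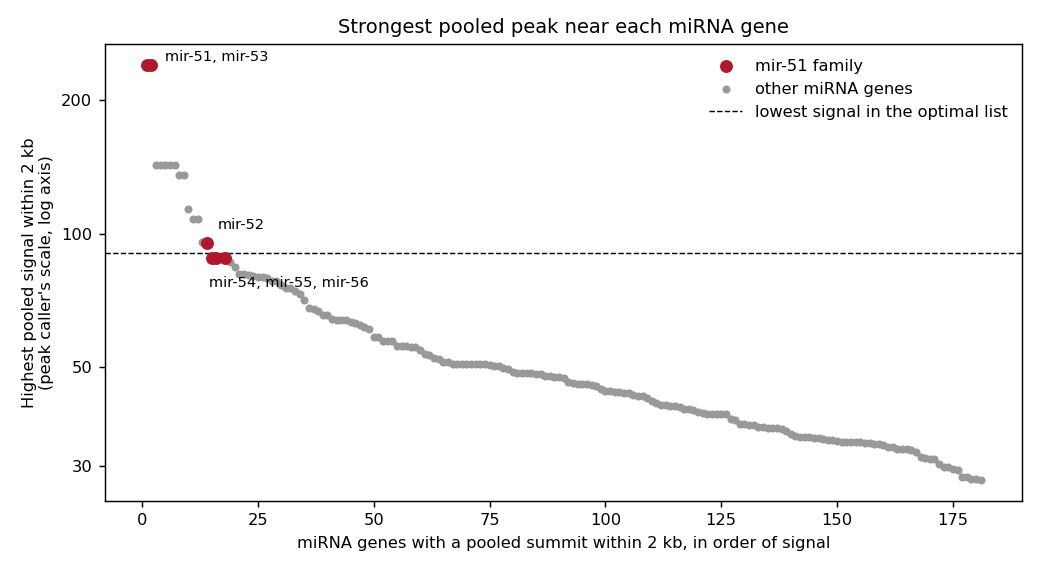
Highest pooled signal within 2 kb of each of the 181 miRNA genes that had a pooled summit there, in order of signal, on a logarithmic vertical axis in the peak caller's units. Red points are the mir-51 family and grey points other miRNA genes, and the dashed line is the lowest signal in the optimal list (90.4). The mir-51 and mir-53 points (240.2, a shared peak) lie highest, mir-52 (95.2) just above the line and mir-54, mir-55 and mir-56 (88.2, a shared peak) just below it.

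Set among all miRNA genes, the members lay near the top of the order in the pooled list. By the best pooled peak within 2 kb, mir-51 and mir-53 shared place 1, mir-52 had place 14, and mir-54, mir-55 and mir-56 shared place 15, of 181 genes with a summit. The median best signal was 91.7 over the 6 members and 46.0 over 175 other miRNA genes. In replicate 1 the medians were 69.4 over the members and 27.8 over 188 others. In replicate 2 they were 39.0 over the members and 24.1 over 197 others. The X cluster had place 8 in replicate 1 and place 58 of 203 in replicate 2. Members of a locus share their best peak in each list, so these values rest on 3 loci. The place of mir-53 in the pooled list is that of the mir-51 peak, 1386 bp away. In replicate 2 the X members take theirs from a peak 1256 bp before mir-54 (signal 30.8). The replicate 2 peak at their strongest pooled position had a signal of 23.7, below the median of the others.

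The long lists cannot separate members from other genes by presence alone. All 6 members had a summit within 2 kb in the pooled list, as did 68.6% of other miRNA genes, and within 500 bp as did 47.5%. The same held for all 6 in replicate 1, beside 73.7% of the others, and for all 6 in replicate 2, beside 77.3%. Among the 407 strongest peaks of each replicate the shares were lower. All 6 members had such a peak within 2 kb in replicate 1, against 12 of 255 other miRNA genes (4.71%), of which mir-55b is 1. In replicate 2, 3 of 6 members had one, mir-51, mir-52 and mir-53, against 14 of 255 (5.49%).

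**Figure D3:**
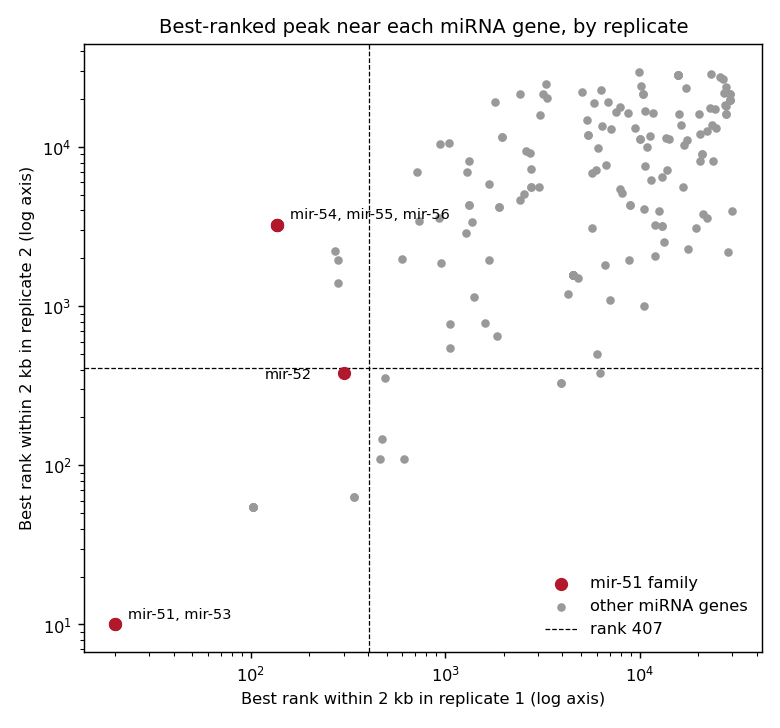
Best rank within 2 kb in replicate 1 (horizontal) and replicate 2 (vertical), both on logarithmic axes, for the 6 members (red) and the 156 other miRNA genes with a peak in both lists (grey); dashed lines mark rank 407. Lower ranks are stronger peaks. The points of mir-51 and mir-53 (20 and 10) and of mir-52 (303 and 380) lie inside both lines, and mir-54, mir-55 and mir-56 (137 and 3253, from different peaks) lie inside the line of replicate 1 alone.

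Both replicates placed one of their 407 strongest peaks within 2 kb of mir-51, mir-52 and mir-53, and did so for 7 of 255 other miRNA genes. These 7 were mir-1018, mir-4921, mir-4923a, mir-4923b and mir-4925, which share a peak, and mir-1819 and mir-2212, which share another. Counted by locus, where genes on the same strand within 5 kb were joined, 2 of 3 family loci had an optimal summit within 2 kb, against 6 of 213 loci outside the family (2.82%). All loci together were 216, of which 24 held 2 or more genes. The 2 family clusters of more than 1 gene are mir-51 with mir-53 and mir-54 with mir-55 and mir-56.

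Seeds shared by several genes were also looked up in the optimal list. Of 10 seeds shared by 4 or more miRNA genes, ACCCGUA was the one with a member within 2 kb of an optimal summit, with 3 of 6, and the other 9 had none. Those 9 hold 4 to 8 genes each, and with 4.31% of all miRNA genes outside the family near an optimal summit, a count of 0 in so small a group does not set it apart from miRNA genes in general. These 9 included the 8 genes mir-35 to mir-42 (seed CACCGGG), and the groups with mir-58b and mir-80 (GAGAUCA), with mir-72 to mir-74 (GGCAAGA) and with mir-64 to mir-66 (AUGACAC). The group with the seed GAGGUAG holds mir-48, mir-84, mir-241 and mir-795 among its 5 genes. Of these 5, mir-795 alone lay within 2 kb of one of the 407 strongest peaks of replicate 2. That peak had rank 331 and its summit lay 1584 bp from mir-795, whose best rank in replicate 1 was 3954. Genes of 1 group can lie in the same cluster, so the number of genes is not a number of independent loci. A gene can also stand in more than 1 group, as mir-2217b-2 does under the seeds AGAGUGG and UGACCCU. The groups are thus not all separate sets of genes.

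**Figure D4:**
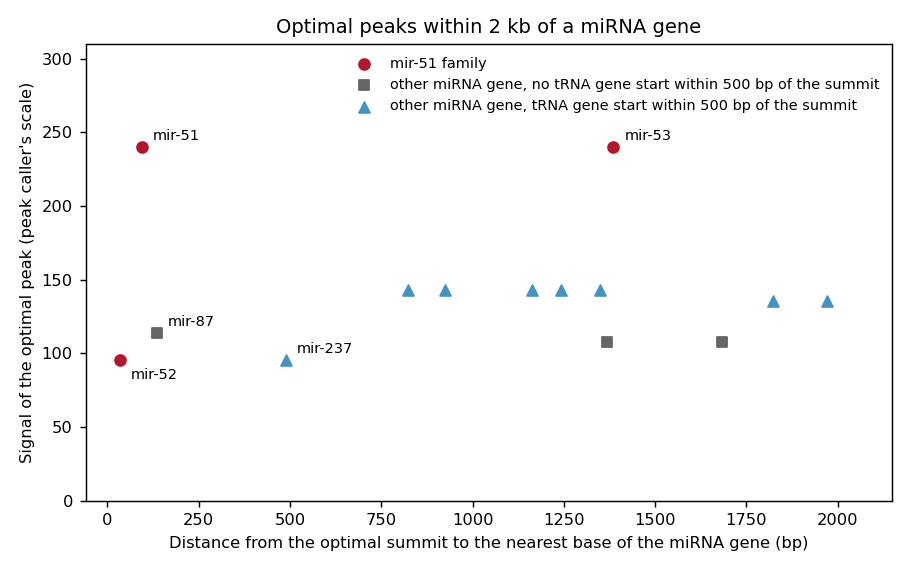
Optimal peaks within 2 kb of a miRNA gene. The horizontal axis is the distance in bp from the summit to the nearest base of the gene and the vertical axis is the signal in the peak caller's units; red circles are members, grey squares other genes with no tRNA gene start within 500 bp of the summit, and blue triangles other genes with one. mir-52 (35 bp), mir-51 (95 bp) and mir-87 (136 bp) lie closest, and the 11 other genes share few peaks.

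The optimal summits at the members mir-52 and mir-51 were the closest to any miRNA hairpin, at 35 bp and 95 bp, followed by that at mir-87, at 136 bp. The 11 miRNA genes outside the family were served by 5 peaks. Of these, 3 had a tRNA gene start within 500 bp of the summit, as did 103 of all 407 optimal peaks. The strongest of the 5 peaks had a signal of 143 and rank 69 and lay at chrX:1880673-1881048 in a tRNA gene. It was 823 bp to 1348 bp from mir-4921, mir-4923a, mir-4923b, mir-4925 and mir-1018. A peak at chrX:16209670-16210045 (signal 135, rank 87), with a tRNA gene nearby, lay 1823 bp from mir-1819 and 1970 bp from mir-2212. The peak near mir-237, a relative of lin-4, had a signal of 95.7, rank 325 and a pair of tRNA genes within 500 bp. Without a tRNA gene were the peak at mir-87 (chrV:12038729-12039104, signal 114, rank 162) and the peak in an exon of eef-1A.1, a translation elongation factor gene, 1368 bp from mir-2213 and 1684 bp from mir-5549 (signal 108, rank 199).

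By best pooled rank over the 30000 pooled peaks, the gene outside the family next above mir-52 (rank 331) was mir-237, at rank 325. Next below it was mir-55b, at rank 458, through the X peak that it shares with the family cluster. Next below mir-51 and mir-53 was mir-1018, at rank 69, 56 places lower, and none stood above. For mir-54, mir-55 and mir-56 these were mir-237 above and mir-2214, 41 places lower at rank 499. At mir-2214 the pooled summit lay 14 bp before the gene start with a signal of 86.2, and the best ranks were 272 in replicate 1 and 2234 in replicate 2.

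Sequence at the summits is shown for the strongest pooled peak of each locus and for the weaker peak just before mir-54, because mammalian Sp proteins bind GC-rich boxes. Each window reaches 100 bp to either side of the pooled summit, was read from WBcel235 on the strand of the miRNA genes, and has capitals for every match to 6 words on either strand. One word was the core of the GC box, GGGCGG. Its longer form GGGCGGG, which contains the core, was counted separately. The short form of a related box was searched as CACCC. A purine repeat was searched as GAGAGA. The word of GATA factors, here called the GATA word, was searched as TGATAA and also accepted with A as its first letter, with G as its last letter, or with both changes. The usual core promoter word was searched as TATAAA. The positions are chrIV:11026107-11026307 on the minus strand, chrIV:14033873-14034073 on the plus strand, and chrX:13144350-13144550 and chrX:13145154-13145354 on the minus strand.
mir-51: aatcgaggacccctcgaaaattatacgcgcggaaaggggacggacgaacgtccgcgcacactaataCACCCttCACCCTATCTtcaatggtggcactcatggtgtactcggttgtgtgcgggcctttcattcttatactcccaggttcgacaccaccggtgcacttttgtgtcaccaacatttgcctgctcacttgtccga
mir-52: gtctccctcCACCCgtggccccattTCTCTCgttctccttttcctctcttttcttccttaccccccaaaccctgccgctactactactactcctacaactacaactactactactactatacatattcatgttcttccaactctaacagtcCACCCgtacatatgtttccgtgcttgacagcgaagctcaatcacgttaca
beyond mir-56: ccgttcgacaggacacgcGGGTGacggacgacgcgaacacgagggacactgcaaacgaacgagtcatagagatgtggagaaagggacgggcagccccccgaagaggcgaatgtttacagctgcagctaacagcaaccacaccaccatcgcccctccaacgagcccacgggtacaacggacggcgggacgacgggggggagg
before mir-54: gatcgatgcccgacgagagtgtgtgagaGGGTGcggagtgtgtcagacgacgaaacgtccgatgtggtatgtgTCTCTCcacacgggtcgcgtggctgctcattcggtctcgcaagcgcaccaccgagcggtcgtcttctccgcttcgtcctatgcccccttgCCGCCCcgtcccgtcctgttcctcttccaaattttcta

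The word CACCC occurred in all 4 windows, against 25.1% of the 407 windows at optimal summits and 17.2% of the 30000 at pooled summits. At mir-51 it occurred on the printed strand at positions 67 and 74 of the window, counted from its first printed base, and a GATA word overlapped the second match by 1 base. At mir-52 it occurred at positions 10 and 152, and the match at 152 was the first 5 bases of the mature miRNA itself. GAGAGA was found at mir-52 and before mir-54, against 27.0% of optimal and 14.7% of pooled windows. The GC box core GGGCGG was found before mir-54 alone among the 4, against 12.3% of optimal and 5.46% of pooled windows, and neither GGGCGGG (3.69% of optimal and 1.27% of pooled windows) nor TATAAA (14.7% of optimal and 14.8% of pooled windows) was in any. A GATA word was found at mir-51 alone, against 28.5% of optimal and 34.0% of pooled windows. With 50 bp to either side of the strongest summits, CACCC was left at mir-51 alone of the 3 loci.

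The GC content of the windows was 52.7% at mir-51, 46.8% at mir-52, 63.2% beyond mir-56 and 60.2% before mir-54. The median was 46.3% over optimal summits and 40.8% over pooled summits, with ranges of 26.9% to 75.6% and 12.9% to 76.6%. Part of the mir-52 window, 66 bases, and 6 bases of the mir-51 window lay in hairpins, and both windows on X lay outside them. In windows from 250 bp before to 50 bp after the gene starts, GGGCGG occurred at 2 of 6 members, mir-52 and mir-54, at 22.4% of other miRNA genes and at 7.83% of protein-coding genes. CACCC occurred at 4 of 6 members, at 24.7% of other miRNA genes and at 18.9% of protein-coding genes. The windows reach into the hairpins, and the single match at mir-53 and 1 of the 2 at mir-52 lay in the mature miRNA, so they come with the family's own sequence. Outside the mature miRNAs, 3 of 6 members had a match, mir-51, mir-52 and mir-54. The windows of the 3 X members overlap. GAGAGA was found 8 times, overlaps counted, in the window of mir-53. It occurred at 4 of 6 members, 23.1% of other miRNA genes and 21.8% of protein-coding genes. A GATA word was at 5 of 6 members, 45.9% of other miRNA genes and 54.5% of protein-coding genes. For TATAAA these were 2 of 6, 28.6% and 37.9%, and for GGGCGGG 1 of 6, 9.41% and 2.11%.

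Genes chosen as making or using miRNAs were looked up in the same lists. The target gene cdh-3 was counted among them, as was tut-1, whose part in the pathway was not checked. A peak was counted when a summit lay within 500 bp of a protein-coding start. Of 23 listed genes 22 were matched by name. In the optimal list 1 of the 22, vig-1, which encodes a component of the miRNA effector complex, had a peak, against 0.936% of 19973 protein-coding genes. Its signal was 98.2 and its rank 282, with rank 124 in replicate 1 and rank 3719 in replicate 2. In the pooled list 13 of 22 had one, against 36.9% of protein-coding genes. Among these, and named after their values were seen, drsh-1, the Drosha gene, had a signal of 64.1, xrn-2, an exonuclease that degrades mature miRNAs, 67.3, and alg-1, a main Argonaute gene of the pathway, 46.8. The Pasha gene pash-1 and cdh-3 had no summit within 500 bp of a start in any of the 4 lists. Within 1000 bp of a start, ain-1 (signal 125, rank 110) and nhl-2 (signal 112, rank 169), which encode a GW182-like protein and a cofactor of miRNA silencing, also had an optimal summit. That made 3 of 22 genes, against 1.54% of protein-coding genes at this distance.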

How the data were processed

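Each replicate's peaks came from its own alignment plus a control alignment, per the deposited file descriptions. The pooled list used both alignments with that control, and the optimal list was derived from the other lists by an IDR (irreproducible discovery rate) threshold. All are on ce11, the assembly of WBcel235, and the annotated genes ended within the sequence on all 6 nuclear chromosomes. Aligner and peak caller: not given in the sources used here. Signal is a deposited score whose scale the files do not define, so it was ranked within each list and not compared between lists. A further deposited column, taken as −log10 values, was not used, since the files do not state its meaning. The lists give no read totals, so depth is unknown. The 3 long lists each hold 30000 peaks, and all 407 optimal peaks were the 407 strongest pooled ones.

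Genes came from Ensembl release 115, with hairpin annotations as gene spans, and sequences from the RefSeq copy of the genome. Distances run from the summit to the nearest base of a gene, or, where said, along transcription from its start, and coordinates are 1-based. A replicate's strongest peaks are its 407 highest signals. Distances and motif counts were tested on simulated data. No significance test was run: there is 1 group, and the members, gene lists and motifs were chosen with earlier results of these data known. Named were all members, the miRNA genes outside the family with an optimal summit within 2 kb or among the 10 with the highest pooled signal, those next in rank, the neighbours at the loci, and pathway genes with an optimal peak. Outside this rule, and chosen after their values were seen, were drsh-1, xrn-2, alg-1, pash-1, cdh-3, ain-1, nhl-2 and the genes of other seed groups. Scripts ran in Python 3.11.15.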

Additional observations from a re-analysis of the deposited data

How the results depend on the processing

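The count of members with an optimal summit within 2 kb was 3, beside 4.31% of other miRNA genes. It was 2 within 500 bp (0.784% of others), 2 within 1000 bp (1.57%), 3 within 5000 bp (5.10%), 3 by distance to the gene start (3.92%), 3 by any base of the peak (4.31%) and 2 in the 204 strongest optimal peaks (3.92%), where mir-52 dropped out. It was 6 with the strongest 2000 pooled peaks, beside 38 of 255 other miRNA genes (14.9%). A replicate was also left out, by using the 407 strongest peaks of the other. Without replicate 1 there were 3 members, beside 14 other genes (5.49%). Without replicate 2 there were 6 members, mir-54, mir-55 and mir-56 being the 3 added, beside 12 other genes (4.71%). In the optimal list, other miRNA genes numbered 11 within 2 kb, 2 within 500 bp and 4 within 1000 bp. In 2 alternatives chosen after seeing the data, they numbered 5 with each peak given to its nearest miRNA gene (2 members, mir-51 and mir-52) and 3 without peaks at tRNA, snoRNA or snRNA starts (3 members). Of 14 replicate 1 peaks at the loci, 10 overlapped a replicate 2 peak by at least 1 bp, beside 13905 of all 30000 replicate 1 peaks. By at least 50% of both, 9 overlapped, and 7 had summits within 100 bp. No share over all peaks is given for the last 2 rules, and the counts are a description. A GC box, CACC box or GA repeat was at 3 of 3 strongest summits, beside 49.4% of optimal and 31.9% of pooled summits. All 3 held CACCC, mir-52 also held GAGAGA, and none held the GC box core GGGCGG. With 50 bp either side the count was 1, beside 28.0% of optimal and 18.5% of pooled summits. Of the pathway list, with cdh-3 and tut-1 included, genes with an optimal peak numbered 1 of 22, and 3 within 1000 bp (1.54% of protein-coding genes). Without a replicate they ranged from 0 (without replicate 1, 0.841% of protein-coding genes) to 1 (without replicate 2, 0.986%). No paired analysis was possible because the series has 1 group and the results come from no test. Depth is unknown, so a difference between the replicates at the X cluster cannot be weighed against read numbers.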
